A study of Mus musculus with 10 samples.

Results

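The Polycomb repressive complex genes Ezh1, Ezh2, Eed, Suz12, Bmi1, Ring1, Rnf2, Cbx2 and Cbx8 were compared between cultured MC38.T4 cells and their parental line MC38 by RNA sequencing, with 5 libraries per line. They were taken by gene symbol from a table of 54343 genes, in which all 9 symbols were present, and all 9 were among the 11110 genes with enough signal to be tested. Values are FPKM, fragment counts normalised to gene length and to library size, so levels of different genes can be set side by side. MC38.T4 is a single clone: MC38 cells were transfected with a huMSLN.pcDNA3.1 vector for human mesothelin, sorted as the clone MC38.huMSLN.34, grown as tumours in C57/BL6 mice and returned to culture, and 1 tumour cell clone with low mesothelin was expanded. The genotype label of MC38.T4 is low mesothelin expression. MC38 was bought from a vendor, is the untransfected parent, and is labelled wild type. Both lines grew in the same RPMI medium with serum, so the lines differ at once in the transgene, the growth in mice, the extra passages and the cloning, and these cannot be told apart.

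Polycomb proteins act in a pair of complexes that keep developmental genes silent. Polycomb repressive complex 2 (PRC2) carries a methyltransferase, EZH2 or its paralog EZH1, which needs EED and SUZ12 to methylate lysine 27 of histone H3. Polycomb repressive complex 1 (PRC1) carries RING1 or RNF2 (RING1B), which ubiquitinate histone H2A (H2AK119) together with a PCGF protein such as BMI1. Canonical PRC1 also holds a CBX protein, which binds methylated H3K27, and a PHC protein, whereas variant PRC1 holds RYBP or YAF2 in place of the CBX protein.

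The promoters of 5 of these genes are printed because the genes pair off as partners or paralogs that moved in opposite directions: Ezh2 and Suz12 against Eed within PRC2, and Rnf2 against Ring1 within PRC1. The RefSeq promoter table of build GRCm38.p6 held 8 of the 9 members, each as 250 bases before and 50 bases after the annotated start. The table is of another build than the GRCm39 that the submitters' processing notes name. In that build the windows are chr6:47594981-47595280 for Ezh2 (minus strand), chr11:79992856-79993155 for Suz12 (plus strand), chr7:89980927-89981226 for Eed (minus strand), chr1:151500942-151501241 for Rnf2 (minus strand) and chr17:34024631-34024930 for Ring1 (minus strand). Sequences run 5′ to 3′ on the strand of the gene. Capitals mark matches to an E2F-type motif (TTTCCCGC, TTTCGCGC, TTTGCCGC or TTTGGCGC), to the E-box CACGTG and to CCAAT, each searched on both strands.
Ezh2: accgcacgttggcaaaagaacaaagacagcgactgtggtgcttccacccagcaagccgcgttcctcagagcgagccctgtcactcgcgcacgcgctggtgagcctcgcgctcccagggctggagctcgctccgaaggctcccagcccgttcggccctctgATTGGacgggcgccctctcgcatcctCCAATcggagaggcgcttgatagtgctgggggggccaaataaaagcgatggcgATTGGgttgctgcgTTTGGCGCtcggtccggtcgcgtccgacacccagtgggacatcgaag
Suz12: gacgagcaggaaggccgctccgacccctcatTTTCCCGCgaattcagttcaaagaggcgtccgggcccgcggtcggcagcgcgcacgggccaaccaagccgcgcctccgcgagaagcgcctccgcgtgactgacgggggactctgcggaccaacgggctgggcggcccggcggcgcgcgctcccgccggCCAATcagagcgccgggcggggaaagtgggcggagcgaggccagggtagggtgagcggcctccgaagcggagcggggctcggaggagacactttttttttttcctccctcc
Eed: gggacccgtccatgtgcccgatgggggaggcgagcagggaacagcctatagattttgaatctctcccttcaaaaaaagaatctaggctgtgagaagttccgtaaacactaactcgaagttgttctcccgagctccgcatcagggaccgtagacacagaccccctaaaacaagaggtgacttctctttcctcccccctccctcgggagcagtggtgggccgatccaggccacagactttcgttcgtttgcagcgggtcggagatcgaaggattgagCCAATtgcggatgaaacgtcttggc
Rnf2: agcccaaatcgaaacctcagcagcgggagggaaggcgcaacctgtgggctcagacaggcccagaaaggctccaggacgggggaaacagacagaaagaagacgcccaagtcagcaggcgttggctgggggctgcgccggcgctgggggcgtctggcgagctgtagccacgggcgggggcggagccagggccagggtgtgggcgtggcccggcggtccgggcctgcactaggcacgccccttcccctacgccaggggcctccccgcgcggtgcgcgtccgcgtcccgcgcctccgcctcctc
Ring1: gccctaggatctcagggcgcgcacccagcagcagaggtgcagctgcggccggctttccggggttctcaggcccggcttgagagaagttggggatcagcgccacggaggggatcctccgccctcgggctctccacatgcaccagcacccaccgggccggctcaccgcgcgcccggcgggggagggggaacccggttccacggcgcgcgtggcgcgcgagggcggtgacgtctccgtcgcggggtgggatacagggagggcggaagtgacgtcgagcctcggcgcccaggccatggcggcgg
Ezh2 held TTTGGCGC with its first base at position 4, counting the start as 1, and Suz12 held TTTCCCGC 219 bases before the start. One of the 4 E2F-type words stood in 2.26% of all 32851 promoters. Of the 11085 promoters of tested genes, 4.25% held one. CCAAT stood on 1 strand or the other 3 times in Ezh2, 1 time in Eed and 1 time in Suz12, and in 38.9% of the promoters of tested genes. No match to any of these words was found in the windows of Rnf2 and Ring1, whose GC contents were 72.7% and 74.0%. Of the members not printed, Bmi1 held CACGTG 215 bases before the start and Cbx8 held it 98 bases before the start, against 10.2% of the promoters of tested genes. Cbx8 also held CCAAT in 2 places, and Ezh1 held none of the words. These matches describe letters and not bound sites.

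The depth of the 10 libraries could only be read indirectly. FPKM summed to 478019 to 484460 in MC38.T4 and to 442183 to 477015 in MC38, but FPKM is already scaled to library size. The relative depth read from the steps of low values ran from 0.894 to 1.13 in MC38.T4 and from 0.915 to 1.02 in MC38. It came from 52 low genes that were kept only if their values above 0 were similar across libraries. Large differences in depth could therefore not show. The number of reads per library is unknown, so no counting interval can be attached to a value. MC38.T4 replicate 4 and MC38 replicate 1 stood apart from the other libraries of their line. In MC38.T4 replicate 4 Malat1 was 124.8 FPKM, against 53.1 to 75.9 in the rest of the line. Mitochondrial genes held 3.76% of FPKM in MC38 replicate 1, against 5.00 to 6.05% in the rest of the line. Suz12, whose difference moves by over 1.5-fold without both libraries, is given both ways. The tissue label says melanoma while the treatment text and library names say colon. Epithelial markers summed to 1.10 to 1.42 FPKM in MC38.T4 and 0.0567 to 0.134 in MC38, and melanocyte markers to 1.85 to 2.07 FPKM in MC38.T4 and 1.19 to 1.51 in MC38. Of these markers Cdx2 (intestine) and Tyr (melanocyte) were at 0 in all libraries. The highest of the 2 lists were Cdh1, at a mean of 1.00 FPKM in MC38.T4, and Mitf, at 1.74 FPKM in MC38.T4. Lymphocyte markers summed to at most 0.171 FPKM in MC38.T4 and 0.0835 in MC38, and Cd3e, Cd8a and the macrophage marker Adgre1 were at 0 throughout. Myeloid markers summed to 1.96 to 3.31 FPKM in MC38.T4 and 3.55 to 4.45 in MC38. The highest of them was Cd68, at a mean of 3.10 FPKM in MC38 and lower in MC38.T4. Of 8 fibroblast and pericyte markers 5 were tested and all 5 were higher in MC38.T4, beside 43.1% of all tested genes. A mean of 1 FPKM was reached by 5 of the 8 in MC38.T4 and by 3 in MC38. Some therefore entered the test through MC38.T4, the line where they are high. The list summed to 108.5 to 117.4 FPKM in MC38.T4 against 33.9 to 36.8 in MC38. The part of these markers in the results below was not tested. In bulk RNA, fewer cells of a kind and less RNA per cell cannot be told apart.

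Of the 9 Polycomb genes, 3 were higher in MC38.T4 (Eed, Bmi1 and Ring1), 5 were lower (Ezh2, Suz12, Rnf2, Cbx2 and Cbx8) and Ezh1 did not pass the test. The test was limma on log2(FPKM + 1) over all 11110 tested genes, two-sided, with a Benjamini-Hochberg adjusted p under 0.05, and log2 differences below are MC38.T4 minus MC38 on that scale, which understates the change of low genes. The lines differed across most of the transcriptome: 86.0% of all tested genes passed, 43.1% higher and 42.9% lower in MC38.T4, so 8 of 9 is close to the share of any gene. The 5 libraries of MC38.T4 and the 5 of MC38 did not overlap for 5 of the 9 members, against 77.4% of all tested genes. No member differed by 2-fold, a size reached by 17.2% of tested genes, 10.0% higher and 7.14% lower in MC38.T4. The median absolute log2 difference was 0.27 over the members and 0.47 over all tested genes. Only Ring1, Rnf2 and Cbx2 of the 9 lay above that median of all genes. Nothing in the labels says that the 5 libraries of a line are separate cultures. All p-values therefore refer to the spread among these libraries alone, which may be a technical one.

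**Figure D1:**
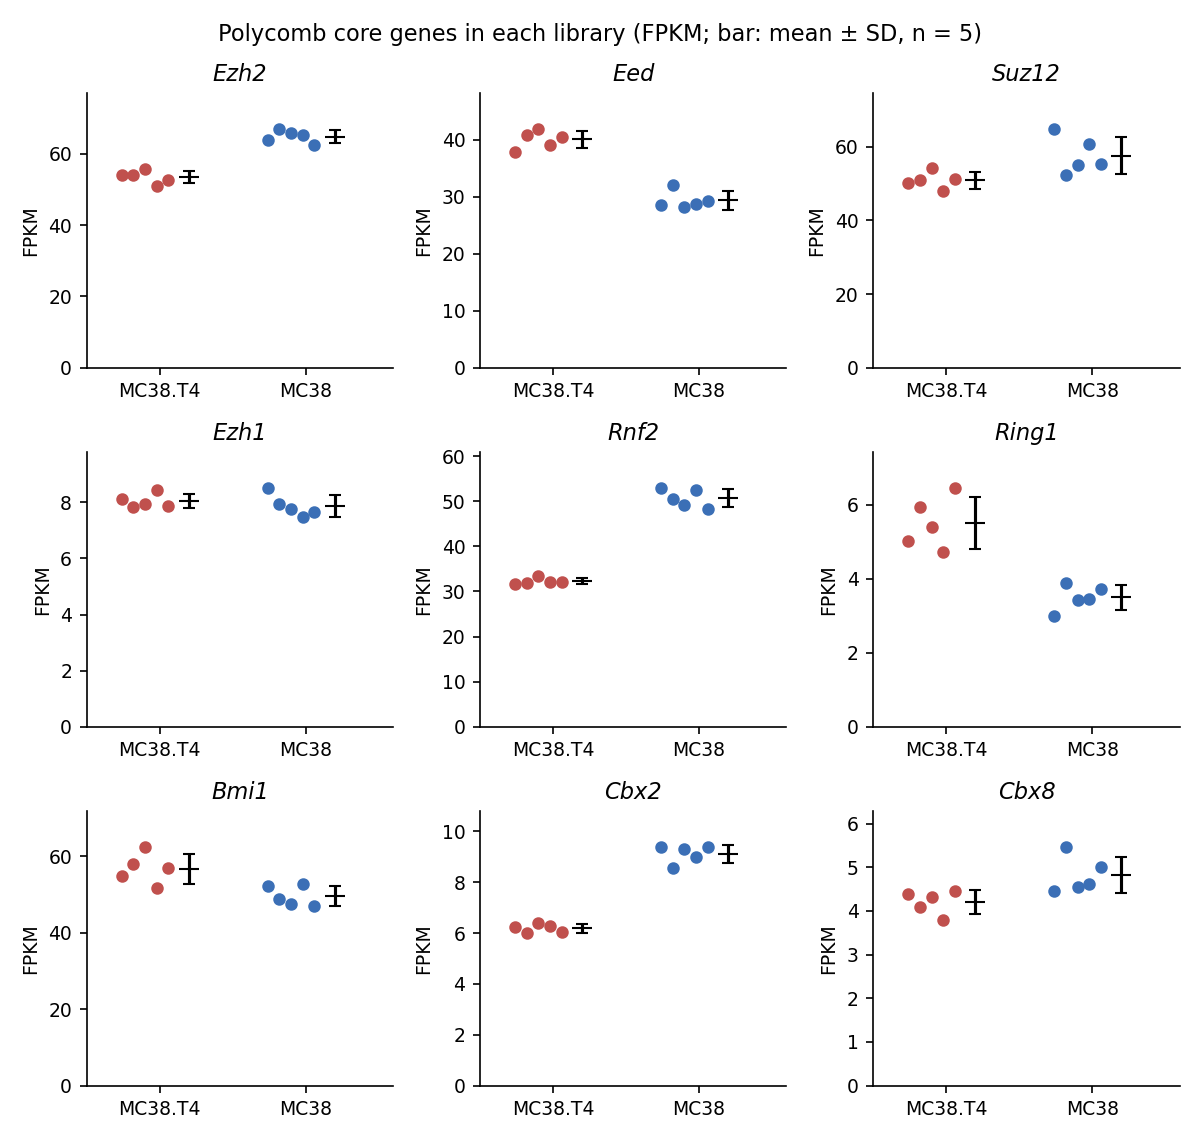
FPKM of the 9 Polycomb genes in each library (points) with the line mean and SD (bars), MC38.T4 left of MC38 in each panel. Points of the lines lie apart for Ezh2, Eed, Ring1, Rnf2 and Cbx2 and overlap for Ezh1, Suz12, Bmi1 and Cbx8.

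Within the PRC2 core, the main catalytic subunit and 1 structural partner were lower in MC38.T4 and the other partner was higher. Ezh2, the main H3K27 methyltransferase of dividing cells, had 54.2, 54.1, 55.6, 51.1 and 52.7 FPKM in the MC38.T4 libraries, against 63.9, 66.9, 65.8, 65.2 and 62.5 FPKM in the MC38 libraries. Every MC38.T4 library lay below every MC38 library. The means were 53.6 ± 1.71 FPKM in MC38.T4 and 64.9 ± 1.72 in MC38 (SD, n = 5 each), 1.21-fold lower in MC38.T4, with a log2 difference of -0.27 (SE 0.03, limma adjusted p = 1.42e-06). An exact two-sided permutation test over the 10 libraries gave p = 0.00794, the smallest it can give.

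Eed, the subunit that reads methylated H3K27 and stimulates the enzyme, went the other way. It had 37.9, 40.9, 41.9, 39.2 and 40.6 FPKM in MC38.T4, against 28.5, 32.1, 28.2, 28.8 and 29.3 FPKM in MC38. The lines did not overlap, and MC38 replicate 2 stood above the other 4 MC38 libraries. The means of 40.1 ± 1.55 FPKM in MC38.T4 and 29.4 ± 1.60 in MC38 (SD, n = 5 each) differ 1.37-fold. On the log2 scale that was 0.44 (SE 0.04), with a limma adjusted p of 7.44e-08 and an exact permutation p of 0.00794.

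Suz12, the scaffold that holds the complex together and contacts its accessory subunits, had 50.2, 50.9, 54.2, 47.9 and 51.1 FPKM in MC38.T4, against 64.7, 52.3, 54.9, 60.8 and 55.3 FPKM in MC38. The lines overlapped in their ranges, since MC38 replicate 2 lay below MC38.T4 replicate 3, and MC38 replicates 1 and 4 were the high ones. The log2 difference was -0.17 (SE 0.05, limma adjusted p = 0.00698; permutation test, exact, p = 0.0159). Without the 2 libraries that stand apart it was -0.11 with a limma adjusted p of 0.0301, and without MC38 replicate 1 alone it was -0.13.

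Ezh1, the less active paralog of Ezh2 that is known from non-dividing tissue, was measured at 8.13, 7.82, 7.96, 8.45 and 7.87 FPKM in MC38.T4, against 8.51, 7.95, 7.75, 7.47 and 7.67 FPKM in MC38. The ranges overlapped almost wholly, with a log2 difference of 0.03 (SE 0.04, limma adjusted p = 0.51). The sign turned to -0.01 after rescaling to TPM and to -0.02 after quantile normalization, so no direction can be given.

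The balance between the PRC2 subunits is given by their ratios. The ratio of Ezh2 to Eed was 1.34 ± 0.0524 in MC38.T4 and 2.21 ± 0.102 in MC38 (SD, n = 5 each), with ranges of 1.30 to 1.43 in MC38.T4 and 2.08 to 2.34 in MC38. The ratio of Suz12 to Eed was 1.27 ± 0.0403 in MC38.T4 and 1.97 ± 0.243 in MC38, again without overlap, while that of Ezh2 to Suz12 overlapped at 1.05 ± 0.0236 in MC38.T4 and 1.13 ± 0.112 in MC38. Ezh1 made up 13.1% of the summed Ezh1 and Ezh2 FPKM in MC38.T4 (12.5 to 14.2%) and 10.8% in MC38 (10.3 to 11.7%). Ezh2 was the main paralog in both lines.

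The largest differences among the 9 members were in the catalytic RING subunits of PRC1. Rnf2, the main H2AK119 ubiquitin ligase, had 31.8, 32.0, 33.4, 32.0 and 32.1 FPKM in MC38.T4, against 52.9, 50.6, 49.3, 52.6 and 48.3 FPKM in MC38. The lines lay far apart in relation to their spread, and 4 of the 5 MC38.T4 libraries lay within 31.8 to 32.1. The means of 32.2 ± 0.645 FPKM in MC38.T4 and 50.7 ± 2.00 in MC38 (SD, n = 5 each) make Rnf2 1.57-fold lower in MC38.T4, with a log2 difference of -0.64 (SE 0.03, limma adjusted p = 8.31e-11; permutation test, exact, p = 0.00794).

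Ring1, the paralog of Rnf2 that can take its place in the complex, was higher in MC38.T4. It had 5.01, 5.94, 5.40, 4.73 and 6.44 FPKM in MC38.T4, against 3.00, 3.89, 3.41, 3.45 and 3.72 FPKM in MC38. The lines did not overlap, although Ring1 was a low gene in both. The means were 5.51 ± 0.695 FPKM in MC38.T4 and 3.50 ± 0.341 in MC38 (SD, n = 5 each), with a log2 difference of 0.53 (SE 0.07, limma adjusted p = 6.71e-06; permutation test, exact, p = 0.00794).

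The ratio of Rnf2 to Ring1 was 5.93 ± 0.735 in MC38.T4 (4.98 to 6.78) and 14.7 ± 1.93 in MC38 (13.0 to 17.6), with no overlap (SD, n = 5 each). As a share of the summed RING FPKM, Ring1 held 14.6% in MC38.T4 (12.9 to 16.7%) and 6.46% in MC38 (5.36 to 7.15%). The sum itself was lower in MC38.T4, at 37.8 FPKM on average against 54.2 FPKM in MC38, so the rise of Ring1 did not offset the fall of Rnf2 in FPKM.

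**Figure D2:**
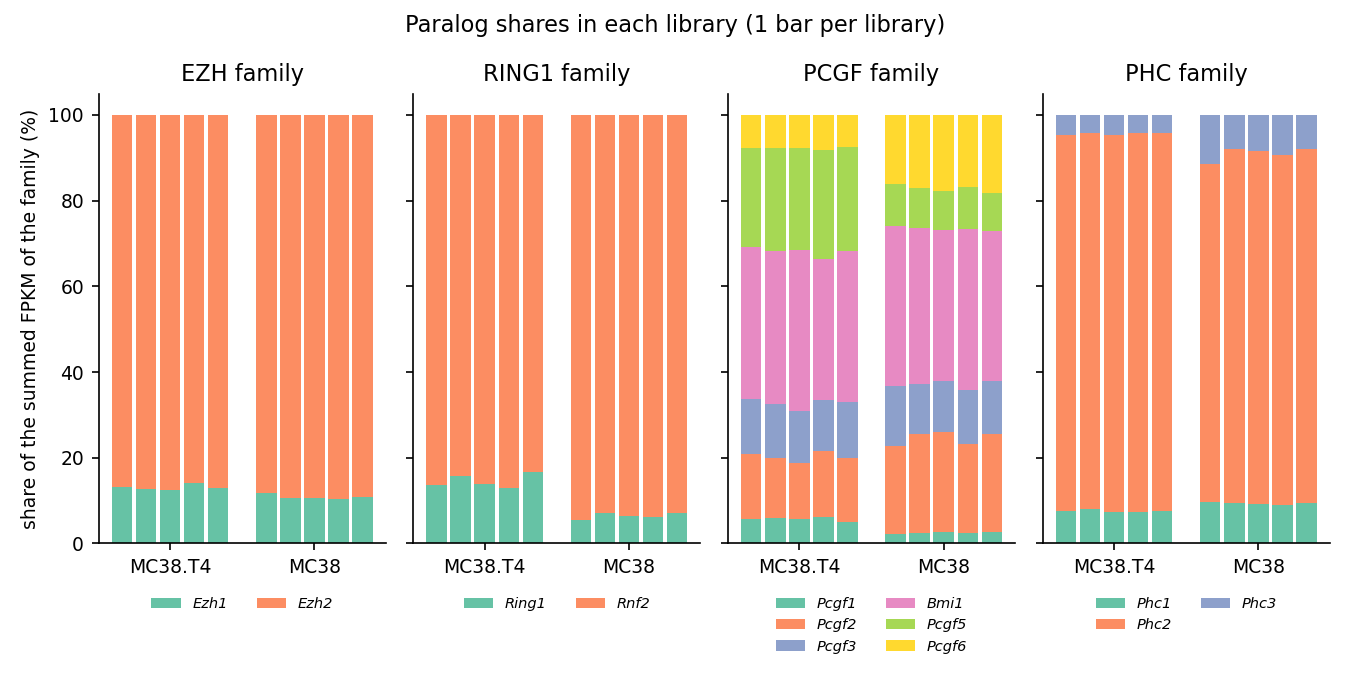
Share of summed FPKM held by each paralog of the EZH, RING, PCGF and PHC groups, in percent, with 1 stacked bar per library, the 5 of MC38.T4 left of the 5 of MC38. Ring1 held 14.6% of the RING group on average in MC38.T4 and 6.46% in MC38, and Pcgf5 held 24.2% of the PCGF group in MC38.T4 and 9.48% in MC38.

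Bmi1 (PCGF4), the PCGF partner of canonical PRC1 that is known for holding down the Ink4a/Arf locus, had 54.9, 57.9, 62.4, 51.6 and 56.9 FPKM in MC38.T4, against 52.1, 48.8, 47.4, 52.7 and 46.9 FPKM in MC38. The ranges touched: MC38.T4 replicate 4 was below MC38 replicates 1 and 4. The log2 difference was 0.19 (SE 0.05, limma adjusted p = 0.00228; permutation test, exact, p = 0.0238). The 6 PCGF paralogs summed to 160.1 FPKM in MC38.T4 and 136.9 in MC38. Bmi1 held 35.4% of that sum (33.0 to 37.5%) in MC38.T4 and 36.2% (35.0 to 37.5%) in MC38, with overlapping ranges.

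The CBX members, which bind methylated H3K27 in canonical PRC1, were both lower in MC38.T4. Cbx2, which compacts nucleosomes, had 6.24, 6.005, 6.42, 6.27 and 6.03 FPKM in MC38.T4, against 9.38, 8.55, 9.29, 8.98 and 9.37 FPKM in MC38. All MC38.T4 libraries lay below all MC38 libraries, and the log2 difference was -0.49 (SE 0.04, limma adjusted p = 8.74e-09; permutation test, exact, p = 0.00794). Cbx8 had 4.40, 4.08, 4.32, 3.78 and 4.46 FPKM in MC38.T4, against 4.46, 5.46, 4.55, 4.61 and 5.01 FPKM in MC38. Here the lowest MC38 library met the highest MC38.T4 library, and the log2 difference was -0.16 (SE 0.06, limma adjusted p = 0.0155; permutation test, exact, p = 0.0159). Quantile normalization moved the Cbx8 value to -0.27.

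Ranked by mean FPKM, the MC38.T4 order was Bmi1, Ezh2, Suz12, Eed, Rnf2, Ezh1, Cbx2, Ring1 and Cbx8. The MC38 order was Ezh2, Suz12, Rnf2, Bmi1, Eed, Cbx2, Ezh1, Cbx8 and Ring1. In MC38.T4 the neighbours Bmi1, Ezh2 and Suz12 overlapped across libraries, as did Cbx2 and Ring1, while Suz12, Eed, Rnf2, Ezh1 and Cbx2 were separate in that order. In MC38, each of Ezh2, Suz12 and Rnf2 overlapped with the next in order, and Bmi1, Eed, Cbx2, Ezh1, Cbx8 and Ring1 followed with no overlap between neighbours. Rnf2 was in the top group in MC38 and below Eed in MC38.T4.

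The members and the other subunits of the complexes make up 4 lists that together hold 45 genes, of which 42 were tested. Of these 22 were higher and 16 lower in MC38.T4 and 4 did not pass, a share of 90.5% passing beside 86.0% of all tested genes. Their median log2 difference was 0.13, beside 0.00 for all tested genes, and 19.0% passed 2-fold, beside 17.2% of all tested genes. These shares lie close to those of all genes.

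In PRC2, the histone-binding subunit Rbbp7 was the core gene with the largest difference, at 132.1 ± 1.78 FPKM in MC38.T4 and 62.8 ± 0.949 in MC38 (SD, n = 5 each; log2 difference 1.06, SE 0.03, limma adjusted p = 2.94e-14). Its paralog Rbbp4 was higher too, by 0.54, and both proteins also serve in other chromatin complexes. Of 7 tested accessory genes 5 were higher, 1 was lower and 1 did not pass. Among all tested genes 43.1% were higher and 42.9% lower. Against a fold of 1.5 (limma's treat), 2 accessory genes were higher and 0 lower. Jarid2, with a mean of 0.942 FPKM in MC38, entered the test through the MC38.T4 libraries. Phf19, a Polycomb-like protein that helps PRC2 settle on CpG islands, had 24.6 ± 0.684 FPKM in MC38.T4 and 6.73 ± 0.224 in MC38 (SD, n = 5 each), a 3.66-fold difference with a limma adjusted p of 2.47e-15. Phf1, another Polycomb-like protein, was 2.72-fold higher in MC38.T4, at 6.88 ± 0.392 FPKM against 2.53 ± 0.253 in MC38. Mtf2, the third of that family, was lower by a small step, with a log2 difference of -0.14 and a limma adjusted p of 0.00872.

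Jarid2, which guides PRC2 to its targets, had 2.05 ± 0.131 FPKM in MC38.T4 and 0.942 ± 0.0608 in MC38 (SD, n = 5 each), a log2 difference of 0.65. Aebp2, another subunit of the Jarid2-containing form, differed by 0.14 and Epop, an accessory subunit known from embryonic stem cells, by 0.13, and neither passed after rescaling to TPM, where their limma adjusted p-values were 0.0562 and 0.116. Lcor did not pass, at a log2 difference of 0.04, with MC38 replicate 1 at 7.18 FPKM and the other MC38 libraries between 4.25 and 5.25. Without MC38 replicate 1 the Lcor difference was 0.15 with a limma adjusted p of 0.0132.

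**Figure D3:**
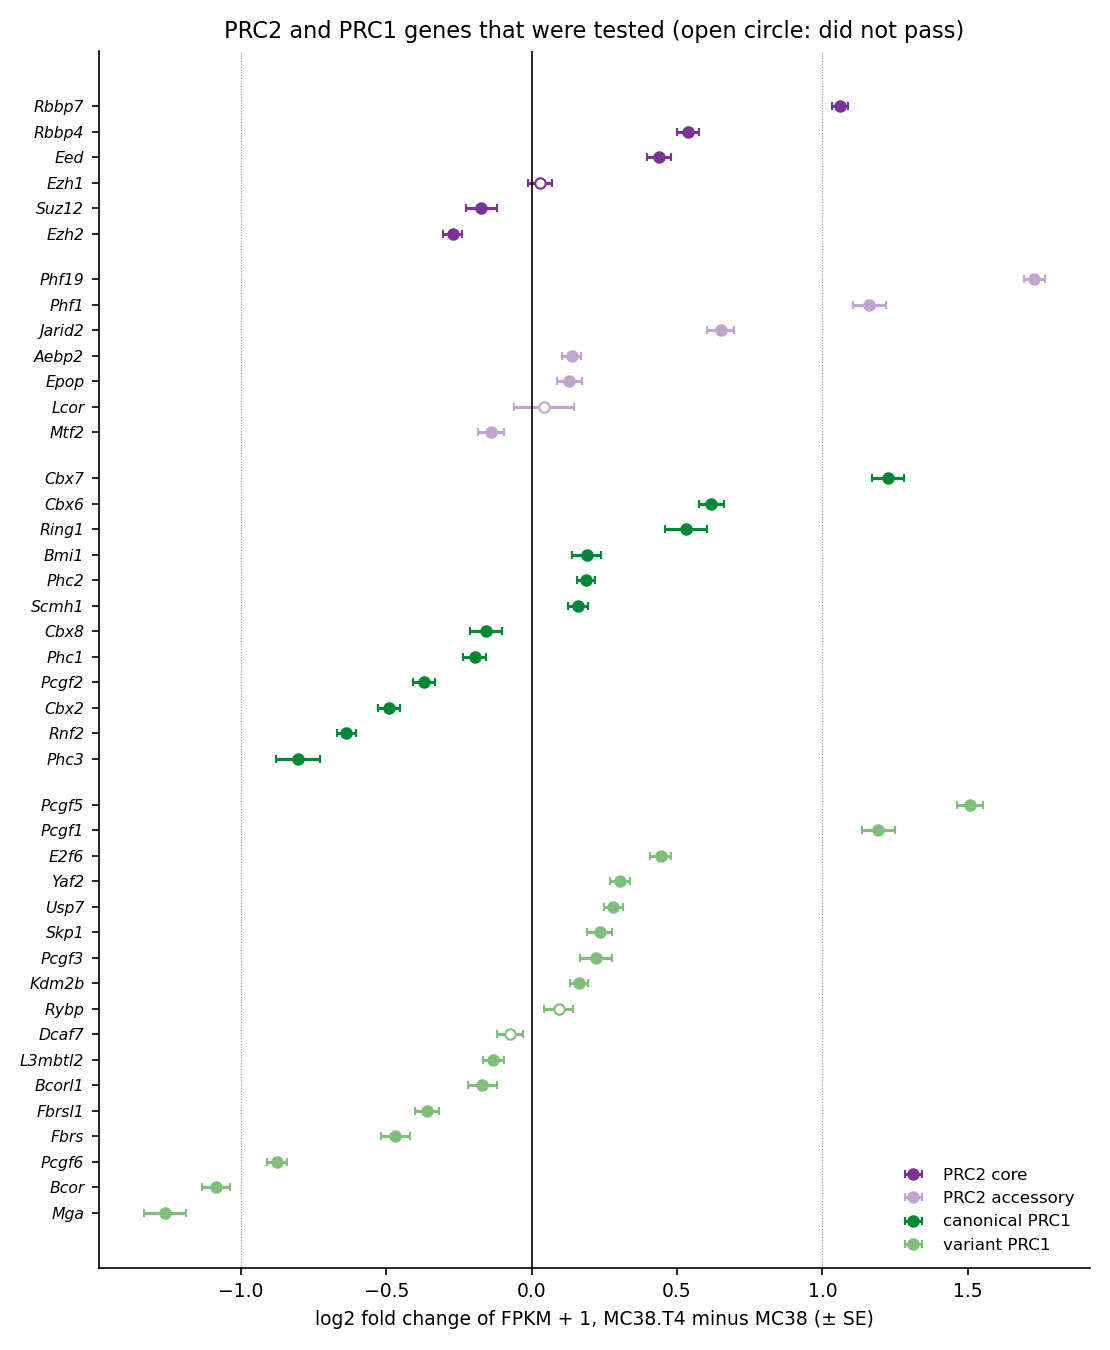
Log2 difference in log2(FPKM + 1), MC38.T4 minus MC38, for the tested genes of the PRC2 core, PRC2 accessory, canonical PRC1 and variant PRC1 lists, with the standard error of the limma fit as bars and open circles for genes that did not pass. Phf19 at 1.73 and Pcgf5 at 1.51 are the highest values, and Mga at -1.26 and Bcor at -1.09 the lowest.

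In canonical PRC1, 6 of 12 tested genes were higher and 6 lower in MC38.T4, beside 43.1% higher and 42.9% lower among all tested genes. Cbx7, a CBX paralog known for repressing the Ink4a/Arf locus, had 12.9, 10.0, 11.9, 11.4 and 11.5 FPKM in MC38.T4, against 4.39, 4.49, 4.36, 4.12 and 4.38 FPKM in MC38. The lines were far apart, with a log2 difference of 1.23 (SE 0.05, limma adjusted p = 8.5e-12). Cbx6 was 1.55-fold higher in MC38.T4, at 42.5 ± 2.30 FPKM against 27.4 ± 1.25 in MC38 (SD, n = 5 each).

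The ratio of Cbx2 to Cbx8 was 1.48 ± 0.114 in MC38.T4 (1.35 to 1.66) and 1.91 ± 0.210 in MC38 (1.57 to 2.10), with overlapping ranges (SD, n = 5 each). Of the PHC genes, whose proteins polymerise and link PRC1 particles, Phc3 was 1.92-fold lower in MC38.T4, at 4.72 ± 0.166 FPKM against 9.07 ± 1.45 in MC38 (SD, n = 5 each). Phc2 held 88.0% of the PHC sum in MC38.T4 and 81.7% in MC38.

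In variant PRC1, 8 of 17 tested genes were higher, 7 lower and 2 did not pass. That split is close to the 43.1% higher and 42.9% lower among all tested genes. Pcgf5, which activates RNF2 in a variant complex, had 35.9, 38.9, 39.8, 39.8 and 39.1 FPKM in MC38.T4, against 13.8, 12.8, 12.4, 13.9 and 12.0 FPKM in MC38. It was 2.98-fold higher in MC38.T4 with a limma adjusted p of 1.24e-13, and its share of the PCGF sum was 24.2% in MC38.T4 against 9.48% in MC38. Pcgf1, the partner of BCOR and KDM2B, was 2.67-fold higher, at 9.09 ± 0.699 FPKM in MC38.T4 and 3.41 ± 0.248 in MC38 (SD, n = 5 each). Bcor itself was 2.38-fold lower in MC38.T4, at 4.39 ± 0.268 FPKM against 10.4 ± 0.595 in MC38.

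The PCGF6 complex, which is brought to DNA by MGA and E2F6, did not move as 1 unit. Pcgf6 was 1.90-fold lower in MC38.T4, with 12.3 ± 0.399 FPKM against 23.5 ± 0.720 in MC38 (SD, n = 5 each). Mga was 2.80-fold lower, with 3.61 ± 0.165 FPKM in MC38.T4 against 10.1 ± 1.42 in MC38. E2f6 was higher, with 21.3 ± 0.814 FPKM in MC38.T4 against 15.4 ± 0.519 in MC38.

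The enzymes that act against Polycomb marks were lower in MC38.T4 on the H3K27 side. All 4 tested genes of that list fell, with a median log2 difference of -0.92, beside 42.9% lower and a median of 0.00 among all tested genes. Kdm6b, an H3K27 demethylase, had 6.94, 6.98, 6.70, 7.87 and 7.58 FPKM in MC38.T4, against 17.0, 15.4, 17.7, 16.5 and 17.6 FPKM in MC38, a log2 difference of -1.12 (SE 0.05, limma adjusted p = 8.72e-12). The other demethylase, Kdm6a, was lower by less, at 3.53 ± 0.145 FPKM in MC38.T4 and 4.95 ± 0.354 in MC38 (SD, n = 5 each). The acetyltransferases of the same residue were lower as well: Ep300 had 13.5 ± 0.754 FPKM in MC38.T4 and 26.3 ± 2.06 in MC38, and Crebbp had 5.17 ± 0.308 FPKM in MC38.T4 and 10.9 ± 1.10 in MC38.

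The H2A deubiquitination list held 11 tested genes, of which 4 were higher, 5 lower and 2 did not pass. Among all tested genes 43.1% were higher and 42.9% lower, so this split is close to that of any gene. Bap1, the catalytic subunit of the Polycomb repressive deubiquitinase, was 1.63-fold higher in MC38.T4, at 32.7 ± 0.570 FPKM against 20.1 ± 0.304 in MC38 (SD, n = 5 each). Its partners Asxl1 and Asxl2 were the 2 that did not pass. Foxk1, a DNA-binding partner of BAP1, was 2.61-fold lower in MC38.T4, at 6.21 ± 0.0784 FPKM against 16.2 ± 0.815 in MC38. Usp16, another H2A deubiquitinase, fell by 0.24 on the log2 scale. The COMPASS list, of complexes that methylate lysine 4 of histone H3 and are known to oppose Polycomb, had 2 of 12 genes higher, 9 lower and 1 not passing, with a median of -0.35, beside 43.1% higher and 42.9% lower among all tested genes. Against a fold of 1.5 (limma's treat), 2 of the 12 were higher and 3 lower. Setd1b was 2.82-fold and Wdr5 1.95-fold lower in MC38.T4, while Ash2l was 2.74-fold higher.

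Lists that include genes known to be repressed by Polycomb were also read. Polycomb binding and H3K27 methylation were not measured in these cells. The list of CDK inhibitors holds Cdkn2a, which encodes p16INK4a and p19ARF and is a classic target, and 6 further genes listed for being CDK inhibitors. Of the 7, 5 were higher in MC38.T4, none was lower and 2 did not pass, with a median log2 difference of 1.10. Among all tested genes 43.1% were higher and 42.9% lower, with a median of 0.00. A mean of 1 FPKM was reached by 7 of them in MC38.T4 and by 6 in MC38. The remaining gene, Cdkn1c, entered the test through MC38.T4, where it is high. At a minimum FPKM of 5 the count was 4 higher. Cdkn2a had 6.54, 7.64, 9.15, 9.49 and 8.39 FPKM in MC38.T4, against 4.99, 9.24, 3.02, 4.66 and 7.92 FPKM in MC38. The MC38 libraries were widely spread and overlapped those of MC38.T4, and the log2 difference of 0.48 (SE 0.25) did not pass, with a limma adjusted p of 0.104 and 0.0250 to 0.279 over the alternatives. It passed only without MC38 replicate 2, at 0.64. The transcripts of both proteins share exons and are 1 row of the table.

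Cdkn2b, the neighbour of Cdkn2a that encodes p15INK4b, had 84.3, 86.0, 86.7, 95.3 and 87.4 FPKM in MC38.T4, against 30.9, 35.3, 35.4, 34.8 and 33.9 FPKM in MC38. It was 2.58-fold higher in MC38.T4 with no overlap. Cdkn1c (p57), an imprinted inhibitor, had 4.31 ± 0.335 FPKM in MC38.T4 and 0.311 ± 0.0959 in MC38 (SD, n = 5 each), a 13.9-fold difference between means that rests on a low MC38 level. Cdkn2c, Cdkn2d and Cdkn1b were 2.30-fold, 2.48-fold and 1.74-fold higher in MC38.T4. Cdkn1a (p21) did not pass, at 13.2 ± 1.00 FPKM in MC38.T4 and 13.6 ± 0.832 in MC38.

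**Figure D4:**
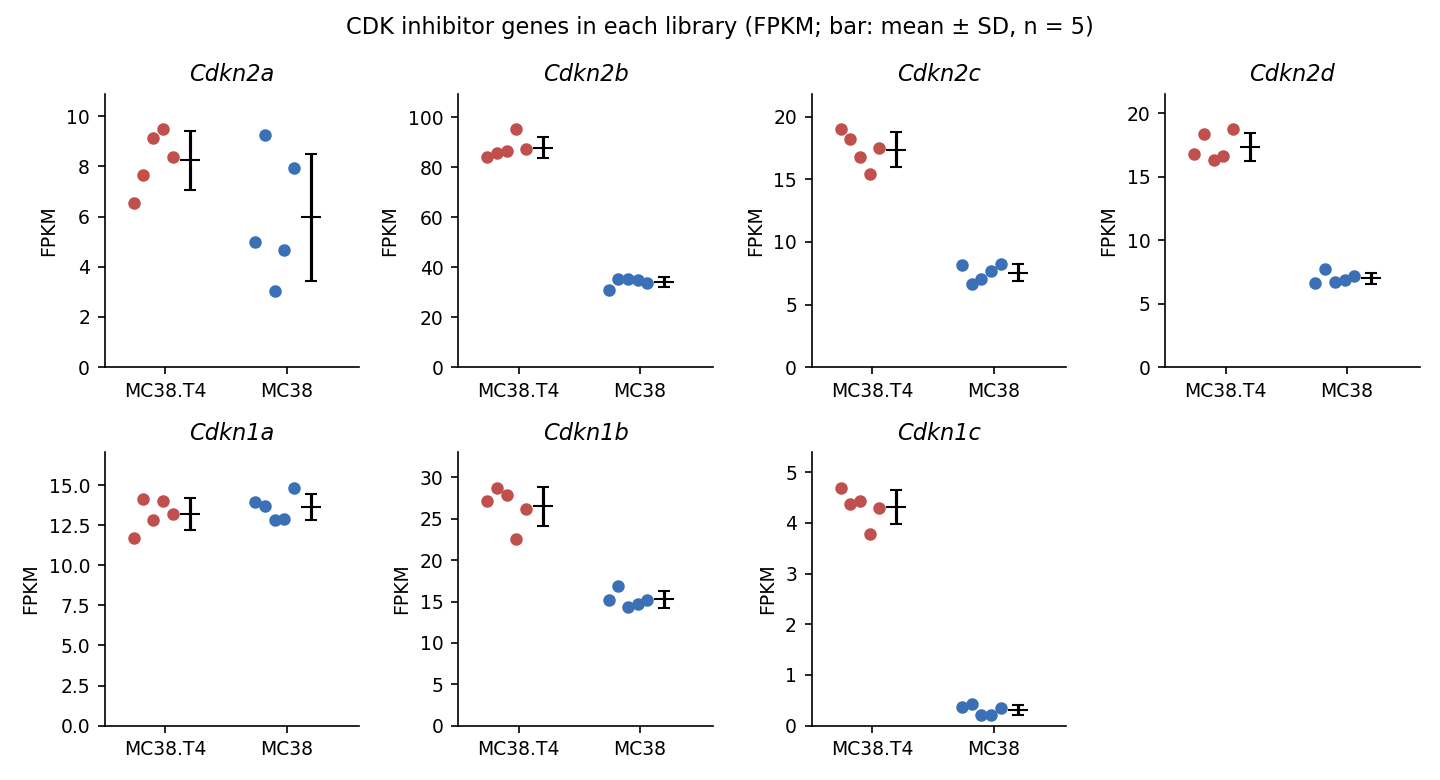
FPKM of the 7 CDK inhibitor genes in each library (points) with the line mean and SD (bars), MC38.T4 left of MC38. The lines lie apart for Cdkn2b, Cdkn2c, Cdkn2d, Cdkn1b and Cdkn1c and overlap for Cdkn2a, with MC38 between 3.02 and 9.24 FPKM, and for Cdkn1a.

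The list of developmental regulators holds 58 genes, mostly for transcription factors, of the kind that Polycomb keeps silent in stem cells and most differentiated cells. Most were low here: 13 were at 0 in all libraries, 34 were not tested, and 24 were tested. Of the tested ones 4 were higher in MC38.T4, 18 lower and 2 did not pass, with a median log2 difference of -0.46. Among all tested genes 43.1% were higher and 42.9% lower, with a median of 0.00. A mean of at least 1 FPKM was reached by 21 genes in MC38.T4 and by 24 genes in MC38, 21 of them in both lines. The low-value filter lets a gene in when 1 line alone is high, so the count describes only genes expressed in at least 1 line, and under no filter it was 9 higher and 20 lower.

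Nkx6-1, a homeobox regulator of pancreatic and neural fates, had 7.46, 7.08, 7.55, 7.71 and 7.33 FPKM in MC38.T4, against 28.7, 26.9, 27.6, 29.6 and 27.7 FPKM in MC38, 3.78-fold lower in MC38.T4. Pax6, the eye and brain regulator, had 0.108 ± 0.0504 FPKM in MC38.T4 and 3.20 ± 0.195 in MC38 (SD, n = 5 each), a log2 difference of -1.92 (SE 0.05, limma adjusted p = 2.55e-14). Zic2, a regulator of forebrain patterning, was 2.22-fold lower in MC38.T4, with 5.99 ± 0.377 FPKM against 13.3 ± 0.611 in MC38. Gata2, a regulator of blood stem cells, was the largest rise, at 13.1 ± 0.423 FPKM in MC38.T4 and 8.24 ± 0.544 in MC38. The other rises were small: Nkx2-5 by 0.27, Hand2 by 0.19 and Pax3 by 0.18 on the log2 scale. Neither Hand2 nor Pax3 passed after quantile normalization, which left 2 of the list higher.

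**Figure D5:**
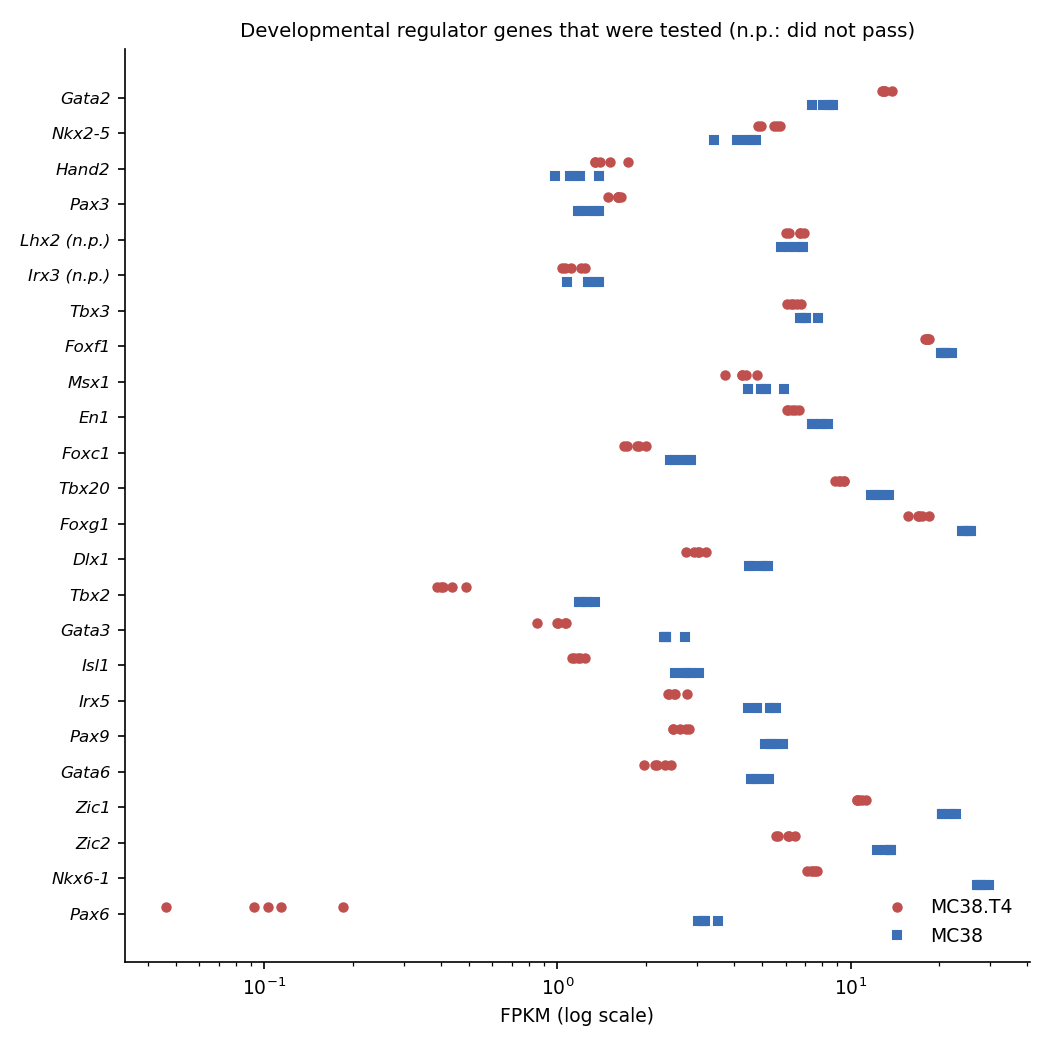
FPKM on a log scale of the 24 tested developmental regulators in each library, MC38.T4 as circles above MC38 as squares, ordered by the log2 difference from the largest rise at the top. Gata2, at 0.61, stands at the top, and Pax6, at -1.92, stands at the bottom with its libraries farthest apart.

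The chromosome neighbours of the members moved in both directions. In the 10 nearest tested genes of each member, the medians of the log2 differences ran from -0.52 around Bmi1 to 0.19 around Ezh1. Around Bmi1 and Eed, both higher in MC38.T4, 7 of 10 and 5 of 10 neighbours were lower, beside 42.9% of all tested genes. Each of the 2 also had 2 higher neighbours. Ring1 lies in the major histocompatibility region, and its nearest tested genes in the GRCm38.p6 order were H2-K1 and H2-Ke6. Both were higher in MC38.T4, at log2 differences of 1.03 and 1.78. Of all 10 neighbours of Ring1, 5 were higher, 3 lower and 2 did not pass, with a median of 0.16, beside 43.1% higher among all tested genes. Reads of H2-K1 may be split among near-identical class I genes, so its value is uncertain. Cbx2 and Cbx8 lie close together on chromosome 11 and both were lower. Genes whose centred log2(FPKM + 1) came closest to that of Ezh2 over the 10 libraries, among 8263 candidates, were Snx6, Ube2n and Cct6a. Their root mean square differences were 0.0234, 0.0248 and 0.0258. The closest to Rnf2 were Fnbp1l, Pibf1 and Lsm14a, with 0.0236, 0.0273 and 0.0278. Centring was on the mean over both lines, so this mostly finds genes with a line difference of similar size. Log2 differences were -0.29 for Snx6, -0.24 for Ube2n and -0.30 for Cct6a, beside -0.27 for Ezh2. They were -0.62 for Fnbp1l, -0.64 for Pibf1 and -0.67 for Lsm14a, beside -0.64 for Rnf2.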

How the data were processed

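PolyA-selected RNA of cultured cells was sequenced as strand-specific libraries, per the labels' protocols. The authors deposited 1 table of FPKM with a column per library. The submitters' processing notes name GRCm39 and DESeq2, with no version or role. Neither aligner, counting program nor annotation is named in these sources. FPKM divides by gene length and library total, so abundant genes that rise in 1 line lower the others. All columns were mapped through library names in the labels.

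Genes that reached an FPKM of 1 in 5 or more of the 10 libraries were tested with limma 3.58.1 in R 4.3.3 on log2(FPKM + 1), with trend and robust variance moderation and a group term only, and Benjamini-Hochberg adjustment. Folds are ratios of mean FPKM, while counts past 2-fold use the log2 difference. Single members had an exact permutation test. Code was tested on simulated data. Python 3.11.15 with pandas 2.3.3, NumPy 2.4.6 and matplotlib 3.10.9 made the other tables and figures.

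The members, the 12 gene lists and the 6 marker lists were chosen with earlier results of these data known. Named list genes are up to 3 largest rises and 3 largest falls past the test, or all genes of a list with at most 8 tested; Asxl1, Asxl2, Pax3, Phc2 and Smarca4 were named after their values were seen, and so were the genes beside Ring1. The markers at 0 were named outside this rule. All 210 list symbols were found. Some genes of these families are not reported here. Gene order comes from the RefSeq gene table of GRCm38.p6. Alternatives changed the pseudocount (to 0.1), the filter (none, or an FPKM of 5), the scaling (TPM, quantile or equal medians) and the model (plain eBayes, array weights or the replicate block). Others were leaving out each library in turn, limma's treat with a fold limit of 1.5 and, chosen after seeing the data, leaving out both libraries that stand apart.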

Additional observations from a re-analysis of the deposited data

Results flagged for a closer look

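In 12 of 170 groups of 5 libraries 1 library stood apart by Dixon's ratio (its gap to the nearest library over the whole range, critical value 0.71), where chance gives about 1 in 20. Of these, 4 were MC38.T4 replicate 4 and 1 was MC38 replicate 1.

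Among the members, Rnf2 was 33.4 FPKM in MC38.T4 replicate 3 and 31.8 to 32.1 in the other MC38.T4 libraries (ratio 0.811). Eed was 32.1 FPKM in MC38 replicate 2 and 28.2 to 29.3 in the other MC38 libraries (ratio 0.724). Both calls rest on lines that do not overlap with these libraries included.

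In MC38.T4 replicate 4, Nsd2 was 35.1 FPKM, where the other 4 libraries had 36.8 to 36.9 (ratio 0.923), Nsd3 22.7 against 21.0 to 21.4 (0.765), Ash2l 40.2 against 41.7 to 42.3 (0.733) and Cdkn2b 95.3 against 84.3 to 87.4 (0.716). Pcgf5 was 35.9 FPKM in MC38.T4 replicate 1 and 38.9 to 39.8 in the rest of the line (0.758), and Gata2 there was 13.9 against 12.8 to 13.1 (0.719). Crebbp was 4.63 FPKM in MC38.T4 replicate 3 against 5.19 to 5.39 (0.734). In MC38, Ash2l was 16.6 FPKM in replicate 5 against 14.6 to 15.0 (0.803) and E2f3 was 17.0 in replicate 2 against 18.2 to 18.6 (0.763). The share of Phc2 was low in MC38 replicate 1, at 79.0% of the PHC sum against 81.7 to 82.7% in the other MC38 libraries (0.745).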

How the results depend on the processing

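All 8 calls of the members kept their direction and their side of the threshold in every alternative that tested them except treat, which asks for a change beyond 1.5-fold (Ring1 and Cbx8 were not tested at a minimum FPKM of 5). Under treat 3474 genes passed, with 0 members higher and 0 lower, at unchanged differences of -0.27 for Ezh2, 0.44 for Eed, -0.17 for Suz12, 0.19 for Bmi1, 0.53 for Ring1, -0.64 for Rnf2, -0.49 for Cbx2 and -0.16 for Cbx8. Ezh1, never past the threshold, turned to -0.015 under TPM and -0.025 under quantile normalization; the cause was not tested. Of 63 called list genes that were followed through the alternatives, 59 kept their call outside treat, while Aebp2 and Epop lost it under TPM and Hand2 and Pax3 under quantile normalization. Genes that never or rarely passed turned sign: Asxl1 to 0.0044 without both libraries that stand apart, Asxl2 to -0.031 under TPM, -0.054 under quantile normalization, -0.016 under equal medians and -0.055 to 0.095 over left-out libraries, Smarca4 to -0.045 under TPM, -0.026 under equal medians, -0.017 under array weights and -0.029 to 0.021 over left-out libraries, Ash1l to 0.014 without both libraries that stand apart and between -0.076 and 0.020 over left-out libraries, Lcor to -0.057 under quantile normalization and -0.0057 to 0.15 over left-out libraries (past the threshold, at 0.16, without both), and Nsd2 to 0.00023 under quantile normalization, 0.030 under array weights, 0.050 without both libraries and -0.036 to 0.037 over left-out libraries. The Pcgf3 share difference ran from -0.16 to 0.44 percentage points over left-out libraries. Developmental regulators gave 1 higher and 9 lower at a minimum FPKM of 5, 2 higher under quantile normalization and 9 higher with no filter. The PRC2 accessory list gave 3 higher under TPM. Most list counts fell under treat. Canonical PRC1 gave 1 higher and 1 lower, variant PRC1 2 higher and 3 lower, and SWI/SNF 3 higher and 1 lower. The E2F and RB family gave 3 higher and 1 lower, and developmental regulators 0 higher and 9 lower. The CDK inhibitors kept 5 higher. Without both libraries that stand apart 5 list counts moved by 1 gene. With no filter 12725 of 26597 genes passed. Same-numbered libraries correlated at -0.129 to 0.142. The labels do not say that the numbers pair libraries, and correlations over 5 pairs cannot decide it. Under the replicate block 9534 genes passed, 3 members higher and 5 lower. None of the 116 results refitted with the block changed its call, or its count by over 1.5-fold. Low genes such as Ring1, Cbx8 and Jarid2 are limited by an unknown read depth.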

Other observations

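Other chromatin regulators moved in both directions. Of 12 SWI/SNF genes, whose remodelling complexes counteract Polycomb, 5 were higher, 5 lower and 2 did not pass in MC38.T4. That is close to the 43.1% higher and 42.9% lower among all tested genes. Smarca2, a catalytic subunit, was 2.62-fold higher at 49.1 ± 1.49 FPKM in MC38.T4 and 18.7 ± 1.65 in MC38 (SD, n = 5 each), whereas its paralog Smarca4 averaged 36.3 FPKM in each line and did not pass. Smarcc2 was 2.06-fold higher in MC38.T4 and Smarce1 was 1.72-fold lower. Of 5 H3K36 methyltransferases, Setd2 was 1.78-fold lower in MC38.T4, Nsd3 was lower by less, Nsd1 was higher, and Nsd2 and Ash1l did not pass.

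The E2F and RB family, among whose known targets is Ezh2, had 8 of 12 tested genes higher, 3 lower and 1 not passing in MC38.T4, with a median log2 difference of 0.39, beside 43.1% higher, 42.9% lower and a median of 0.00 among all tested genes. E2f8 was 2.37-fold and E2f4 2.19-fold higher in MC38.T4. E2f7 was 2.06-fold lower and Rb1 was 1.73-fold lower, at 2.37 ± 0.112 FPKM in MC38.T4 and 4.09 ± 0.450 in MC38 (SD, n = 5 each).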
